A study of Mus musculus with 4 samples.

Results

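The unfolded protein response and the integrated stress response were followed through 37 genes in mouse pre-B cells, a stage of B cell development in bone marrow at which the heavy chain of the antibody is already in place. The genes were listed by function, as sensors, transcription factors, stress effectors, amino acid and folate enzymes, endoplasmic reticulum (ER) folding factors and factors of ER-associated degradation (ERAD), and all 37 were found among the 23284 gene symbols of the deposited files. Bone marrow of C57BL/6J mice was sampled in 4 groups of 1 RNA-seq library each. The steady-state groups were marrow transgenic for STAP-2 and wild-type marrow. The other groups were marrow labelled STAP-2 knockout and wild-type marrow, each taken 1 month after transplantation. STAP-2 is signal-transducing adaptor protein-2, and the study asked which pathways it controls in B lymphopoiesis under stress. The promoter that drives the transgene, the deleted part of the gene, the transplant recipients, the sort gate and the number and age of the animals are not given in the labels. The libraries of each state share a code in their titles that differs between the states, so state and code cannot be told apart.

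Each group holds 1 library, so no difference could be checked against replicates and no test was made. Values are FPKM, read counts scaled to transcript length and to sequencing depth. Each ratio of FPKM is followed by its 95% interval, an exact Clopper-Pearson interval on the estimated reads that covers counting error only. The intervals use the values as deposited, whose sums ran from 518224 FPKM in steady-state wild type to 563299 in the transgenic library. They were not recomputed after rescaling, so a bound near 1 may cross 1 under another scaling. Depth was estimated at 7280000 reads in the transgenic library, 7340000 in steady-state wild type, 8700000 in the library labelled knockout and 7770000 in transplanted wild type. Stap2 itself was at 0.536 FPKM, about 5 reads, in the transgenic library against 0.212 FPKM, about 2 reads, in steady-state wild type, and at 0.179 FPKM, about 2 reads, in the library labelled knockout against a listed 0 in transplanted wild type. Its level therefore checks neither label, and every direction drawn from the library labelled knockout depends on its label alone. The 13 pre-B markers summed to between 6794 and 7583 FPKM, with Vpreb2 at 0 in steady-state wild type. Markers of other cells were present. The 15 neutrophil markers summed to 1857 FPKM in the transgenic library, against 776 in steady-state wild type, and to 662 in the library labelled knockout and 1716 in transplanted wild type. The 10 monocyte and macrophage markers summed to 36.0 FPKM in the transgenic library, against 21.9 in steady-state wild type, and to 26.5 FPKM in the library labelled knockout, against 54.5 in transplanted wild type. Over the 4 libraries, 9 erythroid markers to between 7.26 and 55.0 FPKM (highest in steady-state wild type) and 9 T and NK cell markers to between 4.74 and 9.85 FPKM. Fcgr1 was at 0 in both steady-state libraries, Cd14 in the library labelled knockout, and Ncr1 in all but steady-state wild type. In bulk samples fewer cells of a type and less RNA per cell cannot be told apart. The part of these cells in the results below was not tested.

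Secretory cells meet misfolded protein in the ER with 3 sensors. IRE1 (gene Ern1) splices the mRNA of the transcription factor XBP1, ATF6 is cut in the Golgi to free a transcription factor, and PERK (Eif2ak3) phosphorylates the translation factor eIF2. Amino acid shortage reaches eIF2 through another kinase, GCN2 (Eif2ak4), and phosphorylated eIF2 lowers protein synthesis while it favours translation of ATF4. ATF4 then switches on genes of amino acid uptake and synthesis and, under lasting stress, the death-associated factor CHOP (Ddit3), whereas XBP1 and ATF6 switch on chaperones and ERAD. In the B lineage XBP1 is best known for building the secretory apparatus of plasma cells. Splicing of Xbp1 and translation of Atf4 are steps that a value per gene does not measure.

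These factors act through DNA elements, and matches to such elements near the members' starts are shown. The target classes were listed by function and not by these elements. Promoter windows of 300 bases, 250 before and 50 from the annotated start, were held by RefSeq (build GRCm38.p6) for 32 of the 37 genes. The ER stress response element (ERSE), bound by ATF6 and XBP1, was searched on both strands as CCAAT and CCACG separated by 9 bases. It was found in 5 of the 11 ER folding and ERAD genes that had a window and in 0 of the 15 ATF4 and amino acid targets that had one, against 0.137% of 27025 genes. The matches are printed 5′ to 3′ along each gene's strand with 20 bases on either side, and capitals mark the element, which reads as its reverse complement in Calr and Creld2.
Calr (chr8:84847055-84847113, minus strand): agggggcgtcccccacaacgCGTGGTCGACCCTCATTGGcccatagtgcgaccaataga
Canx (chr11:50325780-50325838, minus strand): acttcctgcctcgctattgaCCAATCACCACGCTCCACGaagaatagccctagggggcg
Pdia6 (chr12:17266471-17266529, plus strand): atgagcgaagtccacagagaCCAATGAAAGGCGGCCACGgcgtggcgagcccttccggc
Creld2 (chr15:88819500-88819558, plus strand): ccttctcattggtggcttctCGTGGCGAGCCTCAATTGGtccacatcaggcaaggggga
Syvn1 (chr19:6046512-6046570, plus strand): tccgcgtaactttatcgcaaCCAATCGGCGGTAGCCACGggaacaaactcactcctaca

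Herpud1 alone held the variant ERSE-II, searched as ATTGG and CCACG separated by 1 base, which 0.0444% of genes held. The C/EBP-ATF response element (CARE) of ATF4 targets was searched as TGATG and AA separated by 1 base and was present in 4.51% of all genes. It was found in 4 of the 15 ATF4 and amino acid targets (Chac1, Trib3, Slc7a11 and Asns) and in 1 of 11 of the ER genes (Herpud1). The cyclic AMP response element (CRE), TGACGTCA, was added to the search after the values were seen, and Ppp1r15a was the only member to hold it, against 2.03% of all genes. The 8-base UPRE, TGACGTGG, was found in 0 of the 32 members and in 0.714% of genes. In the sequences below capitals again mark the element. It reads as its reverse complement in Chac1 and Trib3, and a second Slc7a11 match, on the opposite strand, lies in the lower-case end of that sequence. A match is a description of these letters and not a bound site.
Herpud1 (chr8:94386357-94386407, plus strand, ERSE-II): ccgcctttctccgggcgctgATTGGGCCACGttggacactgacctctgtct
Chac1 (chr2:119351029-119351076, plus strand, CARE): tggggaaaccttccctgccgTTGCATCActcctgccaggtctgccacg
Trib3 (chr2:152344019-152344066, minus strand, CARE): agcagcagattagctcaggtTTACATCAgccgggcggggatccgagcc
Slc7a11 (chr3:50443652-50443699, minus strand, CARE): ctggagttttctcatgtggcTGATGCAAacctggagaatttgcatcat
Asns (chr6:7693205-7693252, minus strand, CARE): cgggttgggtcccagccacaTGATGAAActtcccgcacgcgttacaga
Ppp1r15a (chr7:45526253-45526300, minus strand, CRE): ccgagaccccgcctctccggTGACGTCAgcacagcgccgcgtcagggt

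**Figure D1:**
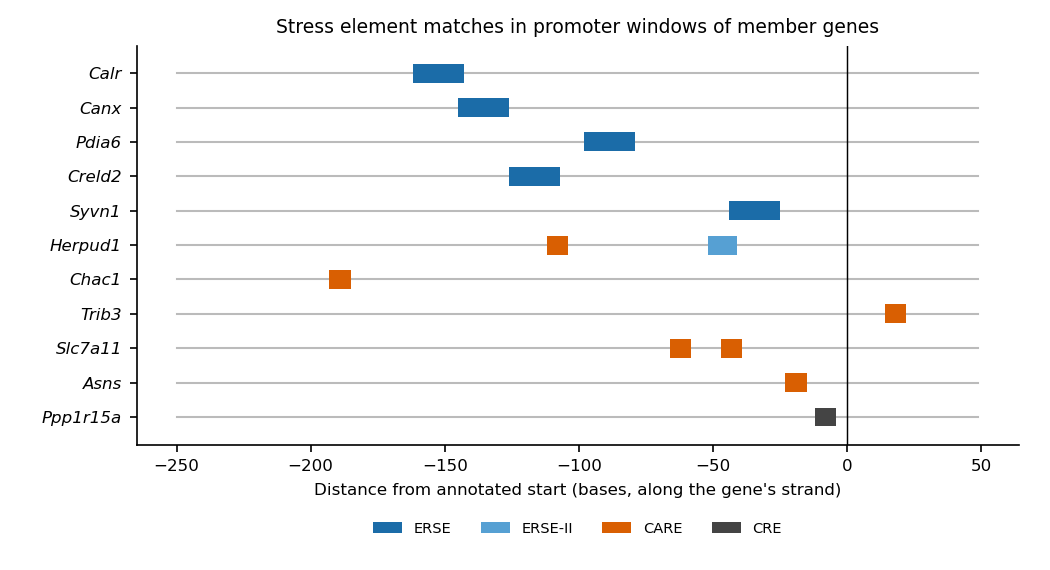
Positions of element matches (coloured boxes, drawn to scale) in the promoter windows of the 11 member genes that held at least 1, in bases from the annotated start along the gene's strand. The 5 ERSE boxes lie between 162 and 26 bases before the start, and the Trib3 CARE lies 14 to 21 bases after it.

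The 4 genes of the ATF4 class with a CARE in the window were also its lowest, at no more than 1.19 FPKM in any library. Of the 37 genes, 35 reached 1 FPKM in at least 1 library and 28 reached 20 FPKM. The exceptions under 1 FPKM were Chac1, a glutathione-degrading enzyme of the ATF4 branch, between 0.200 and 0.422 FPKM on 2 to 5 reads, and Slc7a11, the cystine transporter, between 0 and 0.137 FPKM on 0 to 9 reads. At the other end stood Herpud1, an ERAD scaffold, between 325 and 427 FPKM, Calr, the lectin chaperone calreticulin, between 203 and 283 FPKM, Atf4 between 195 and 229 FPKM and Syvn1, the ERAD ubiquitin ligase HRD1, between 189 and 209 FPKM. Among the 35 genes that reached 1 FPKM, 8 had a highest library at least 1.5 times their lowest, and only Ppp1r15a at least 2 times. Transplanted wild type was the highest of the 4 libraries for 18 of the 37 genes and steady-state wild type the lowest for 20.

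**Figure D2:**
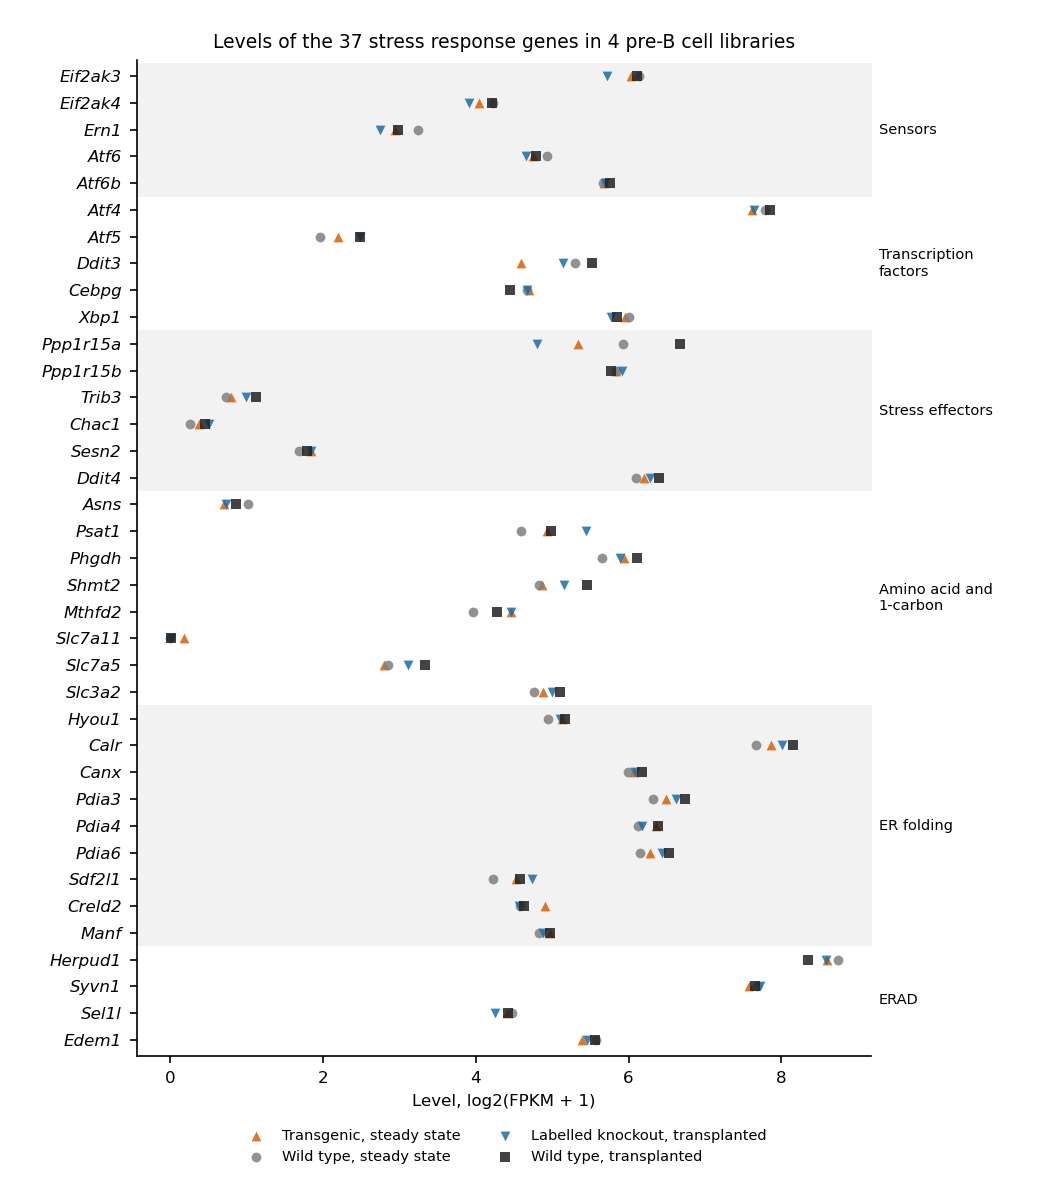
Level of each of the 37 genes as log2(FPKM + 1) in the 4 libraries, 1 point per library, grouped by role (transgenic: triangle up; steady-state wild type: circle; labelled knockout: triangle down; transplanted wild type: square). The points of Ppp1r15a, between 26.9 and 101 FPKM, are the most spread of the genes above 1 FPKM.

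The steady-state pair addressed the effect of added STAP-2. All 9 ER folding genes were higher in the transgenic library, by 1.07 to 1.26 times, and all 4 ERAD genes were lower, at ratios of 0.883 to 0.960. Ddit3 and Ppp1r15a, which encodes the stress-induced eIF2 phosphatase subunit GADD34, were lower by at least 1.5-fold. The Ppp1r15a difference, -0.59, was just past that threshold and fell short of it with a pseudocount of 5 and under 3 of 4 rescalings. Differences are of log2(FPKM + 1), transgenic minus wild type, over genes that reached 1 FPKM in at least 1 of both libraries, and this scale understates the change of low genes. Of the 34 members that passed this filter 19 were higher, against 46.7% of 10843 genes, and 15 lower, against 53.3%. In each target class 9 of 13 were higher. None was 2-fold higher (1.22% of all genes) or 2-fold lower (0.682% of all genes), none was 1.5-fold higher (3.81%), and 2 were 1.5-fold lower (2.31%). The counting interval of the ratio lay above 1 for 10 members (15.1% of genes with a known length) and below 1 for 10 (18.7%). Members are on the whole more highly expressed than other genes, and their intervals are narrower.

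The library labelled knockout against wild type, both after transplantation, was set up to address the loss of STAP-2 in recovering marrow, a label that the Stap2 values above do not check. Ppp1r15a was 3.75-fold lower, and 4 of the 5 sensors and Atf4 were lower beyond counting error in the values as deposited. Psat1, a serine synthesis enzyme, and Herpud1 were higher. Of 34 members 26 were lower, against 56% of 10790 genes, and 8 higher, against 44%, and the median difference of all 34 was -0.10 against -0.03 for all genes. At 2-fold 1 member was lower (1.18% of all genes) and none higher (0.667%). At 1.5-fold the counts were again 1 lower (4.39%) and 0 higher (3.76%). The interval lay below 1 for 15 members (22.9% of genes) and above 1 for 5 (15.6%).

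Transplanted wild type against steady-state wild type compares the states, whose title codes also differ. Of the ATF4 and amino acid targets 12 of 14 were higher after transplantation, the median being 0.36 (log2(FPKM + 1) scale) against -0.02 for all genes. Trib3, counted as higher, and Asns, counted as lower, each passed the filter through 1 library only, which fixed their direction. At 5 FPKM or more, 9 of 10 were higher (median 0.36). All 9 ER folding genes were higher (median 0.26, and 8 of 9 after rescaling to the same sum). The 4 ERAD genes were lower (3 or 4 over the scalings tried), but their median of -0.04 was close to the -0.02 of all genes. The interval held 1 for 3 of the 4, and only that of Herpud1 lay below 1. Of 35 members 23 were higher, against 45.9% of 10835 genes, and 12 lower, against 54.1%. Only 2 were at least 1.5-fold higher (5.2% of all genes), Ppp1r15a and Shmt2. That count was 4 with a pseudocount of 0.1, 1 (Ppp1r15a) with a pseudocount of 5 or after rescaling to the same sum, and 0 without members that overlap another gene. None was 1.5-fold lower (2.28%), 2-fold higher (1.67%) or 2-fold lower (0.628%). The interval lay above 1 for 16 members (16.6% of genes) and below 1 for 5 (19.3%). This comparison shares its wild-type libraries with the genotype comparisons, 1 with each.

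**Figure D3:**
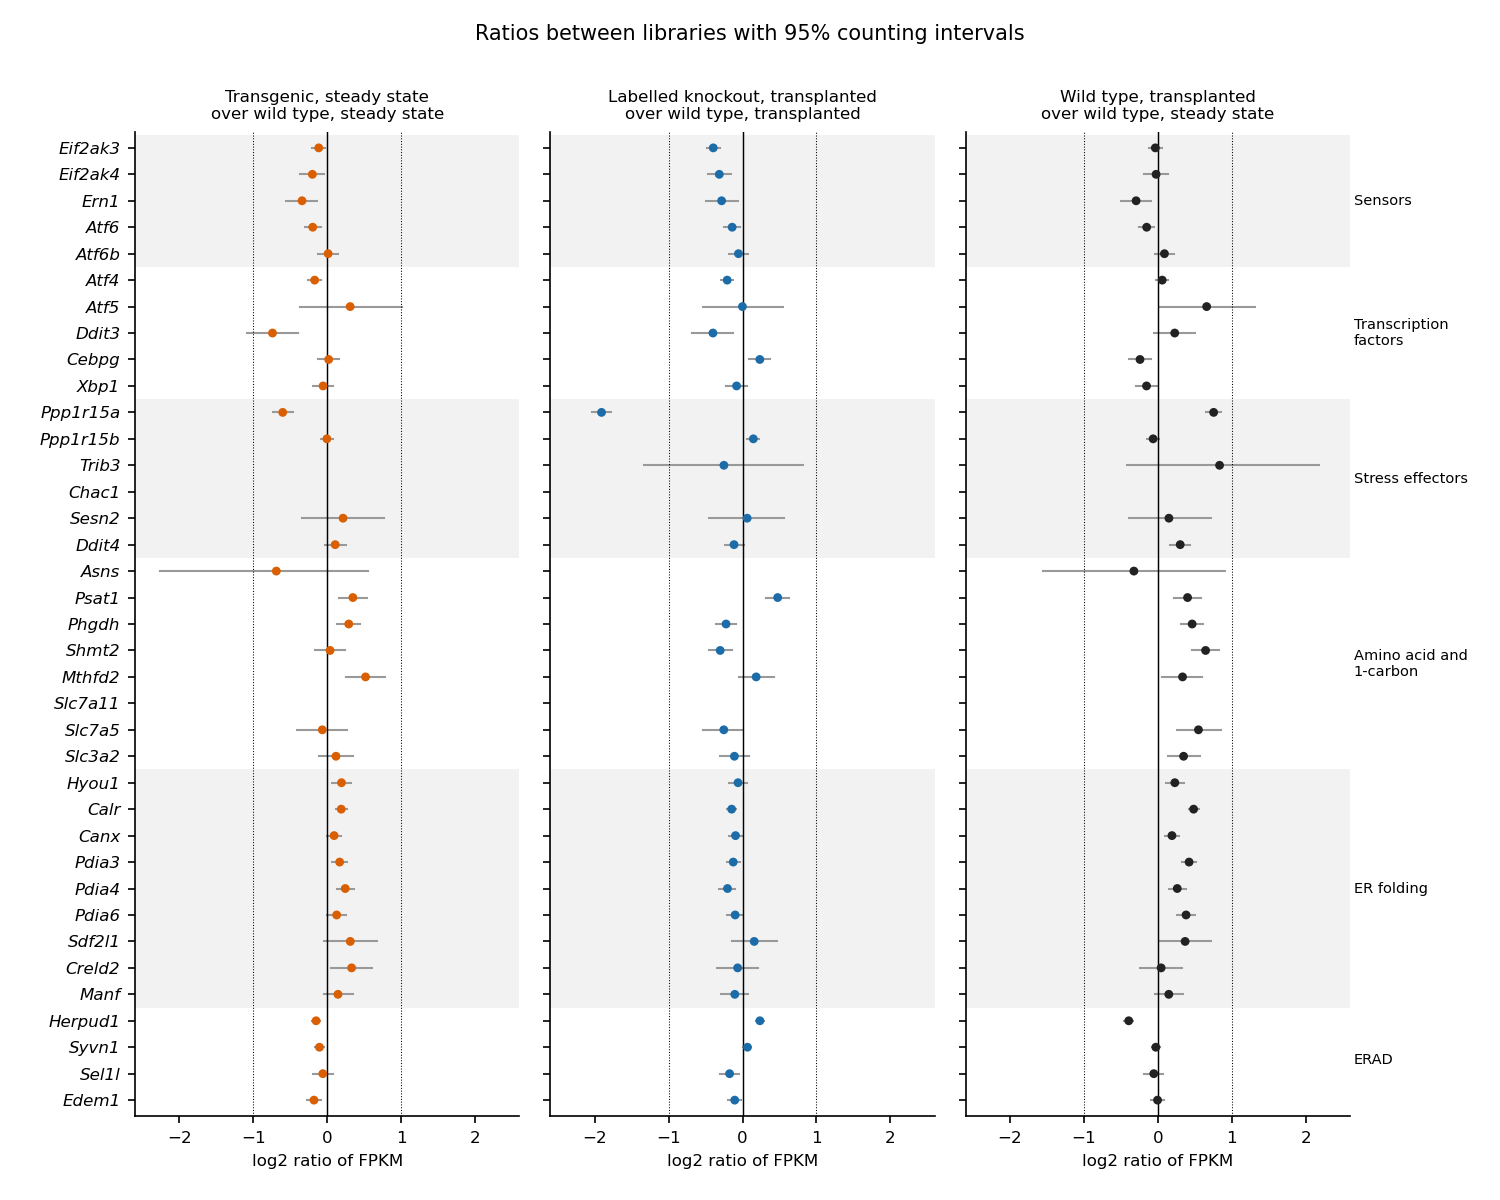
Log2 ratio of FPKM for each member that reached 1 FPKM in either library of a comparison (points), with 95% intervals for counting error (lines) and dotted lines at 2-fold. In the middle panel Ppp1r15a stands alone beyond 2-fold, at a ratio of 0.267, and in the left panel all 9 ER folding genes lie right of 0.

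Sensors were lower in the library labelled knockout than in transplanted wild type without exception, and 4 of 5 were lower in the transgenic library than in its wild type. Of all genes, 56% were lower in the knockout comparison and 53.3% in the transgenic one. Atf6 (chromosome 1, 170704674 to 170867771, minus strand, GRCm38), the sensor that becomes a transcription factor, was at 25.9 FPKM in the transgenic library, against 29.6 in steady-state wild type, with a ratio of 0.873 (0.810 to 0.940). In the transplant pair Atf6 was at 24.25 FPKM in the library labelled knockout and 26.7 in wild type, a ratio of 0.908 (0.843 to 0.976). Steady-state wild type was thus the highest of the 4 libraries for Atf6. Eif2ak3 was at 51.6 FPKM in the library labelled knockout and 67.9 in transplanted wild type (0.760, 0.715 to 0.808), and Eif2ak4 at 14.1 and 17.5 FPKM (0.804, 0.720 to 0.899). In the transgenic library the kinases were at 64.1 and 15.4 FPKM, against 69.5 and 17.8 FPKM in steady-state wild type. Ern1 was the least abundant sensor, at 6.72 FPKM in the transgenic library, against 8.51 in its wild type (0.789, 0.680 to 0.912), and at 5.71 FPKM in the library labelled knockout and 6.94 in its wild type (0.822, 0.708 to 0.959). Atf6b, a paralog of Atf6, lay between 49.6 and 52.8 FPKM in all libraries, and its intervals held 1 in each comparison. Median differences of the sensors were -0.19 for the transgenic library, -0.24 for the library labelled knockout and -0.03 for transplanted wild type. When each library was rescaled to the same sum of all genes, 1 of 5 sensors became higher in the knockout comparison and 0 of 5 were higher in the transgenic one. Against the median of all genes, 0 of 5 lay above it in the knockout comparison and 1 of 5 in the transgenic comparison under every scaling tried.

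Of the transcription factors, Atf4 and Ddit3 were lower beyond counting error in both the transgenic library and the library labelled knockout, and Xbp1 in neither. Atf4 (chromosome 15, 80255184 to 80257541, plus strand) stood at 195 FPKM in the transgenic library, against 219.7 in steady-state wild type, a ratio of 0.889 (0.838 to 0.942). It was at 198 FPKM in the library labelled knockout and 229 in transplanted wild type, a ratio of 0.866 (0.820 to 0.914). Both wild-type libraries were higher than the library set against them. Ddit3 (chromosome 10, 127290774 to 127296288, plus strand), the gene of CHOP, was at 23.0 FPKM in the transgenic library, against 38.5 in its wild type (0.598, 0.471 to 0.759). Its level was 34.2 FPKM in the library labelled knockout and 45.1 in its wild type (0.758, 0.625 to 0.918). Ddit3 overlaps the methionyl-tRNA synthetase gene Mars on the opposite strand, which was between 28.9 and 33.8 FPKM, and whether the counting used strand is not stated. Set against Atf4, the Ddit3 level was 0.118 of it in the transgenic library and 0.175 in its wild type. It was 0.172 in the library labelled knockout and 0.197 in its wild type.

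Xbp1 (chromosome 11, 5520659 to 5525893, plus strand) stood at 60.7 FPKM in the transgenic library, against 63.1 in steady-state wild type, and at 53.8 FPKM in the library labelled knockout and 56.8 in transplanted wild type. The ratios were 0.962 (0.874 to 1.06) and 0.946 (0.860 to 1.04), so that neither difference exceeded counting error. Plasma cells express Xbp1 strongly, and 9 plasma cell markers summed to 334 FPKM in the transgenic library, against 461 in its wild type, and to 144 FPKM in the library labelled knockout and 124 in its wild type. None of the 9 was at 0 in any library. Slamf7 alone held 83.5 of the 144 FPKM in the library labelled knockout and 55.6 of the 124 in its wild type. In that comparison 4 of 6 measured markers were lower and 2 higher (median -0.22), against 56% of all genes lower. Igj, the joining chain gene, was at 204 FPKM in the transgenic library, against 306 in its wild type, and at 7.23 FPKM in the library labelled knockout, against 16.6 in its wild type. Transplanted wild type was at 0.9002 (0.819 to 0.991) of steady-state wild type for Xbp1 and at 0.0543 (0.0459 to 0.0641) for Igj. The part of plasma cells in the Xbp1 level was not tested.

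Cebpg, a C/EBP partner of ATF4, was at 24.4 FPKM in the library labelled knockout and 20.8 in its wild type (1.18, 1.07 to 1.30), and close to equal at steady state, at 24.8 FPKM in the transgenic library, against 24.5 in wild type. Atf5 (chromosome 7, 44812256 to 44816658, minus strand), a translationally controlled relative of Atf4, was low throughout, at 3.59 FPKM in the transgenic library, 2.90 in steady-state wild type, and 4.58 in both transplant libraries. Only the ratio of transplanted to steady-state wild type, 1.58 (1.02 to 2.50), had an interval above 1. Atf5 overlaps Il4i1 and Nup62 on the opposite strand, and Il4i1 was also higher after transplantation, at 41.5 against 13.8 FPKM in wild type.

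Ppp1r15a (chromosome 7, 45522916 to 45526268, minus strand) had the widest span of the genes that reached 1 FPKM. Its level was 39.3 FPKM in the transgenic library, against 59.6 in steady-state wild type, a ratio of 0.659 (0.599 to 0.723). In the transplant pair it was 26.9 FPKM in the library labelled knockout and 101 in wild type, a ratio of 0.267 (0.243 to 0.292) resting on about 607 and 2033 reads. The library labelled knockout was the lowest of the 4 and transplanted wild type the highest, at 1.69 times (1.57 to 1.82) steady-state wild type. Its paralog Ppp1r15b, the constitutive subunit CReP, which brings the same phosphatase to eIF2, lay between 53.7 and 59.4 FPKM and was higher in the library labelled knockout than in its wild type (1.11, 1.05 to 1.17). The inducible subunit was thus at 0.703 of the constitutive subunit's level in the transgenic library and 1.06 in its wild type, and at 0.452 in the library labelled knockout and 1.88 in its wild type. Tulp2, which overlaps Ppp1r15a on the opposite strand, was at no more than 0.148 FPKM.

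Ppp1r15a is also known as an early response gene, and the 20 immediate early genes listed as markers moved with it. They summed to 2202 FPKM in the transgenic library, against 3403 in its wild type, and to 1856 FPKM in the library labelled knockout and 3542 in its wild type. Of the 19 that passed the filter, 14 were lower in the transgenic library (median -0.47) and 19 in the library labelled knockout (median -1.09). In transplanted against steady-state wild type 15 of 19 were higher (median 0.33). Fos was at 192 FPKM in the transgenic library, against 307 in its wild type, and at 102 FPKM in the library labelled knockout and 334 in its wild type. The order of the 4 libraries was the same for Ppp1r15a, for Fos and for the summed list, and the part of this early response in the Ppp1r15a differences was not tested.

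**Figure D4:**
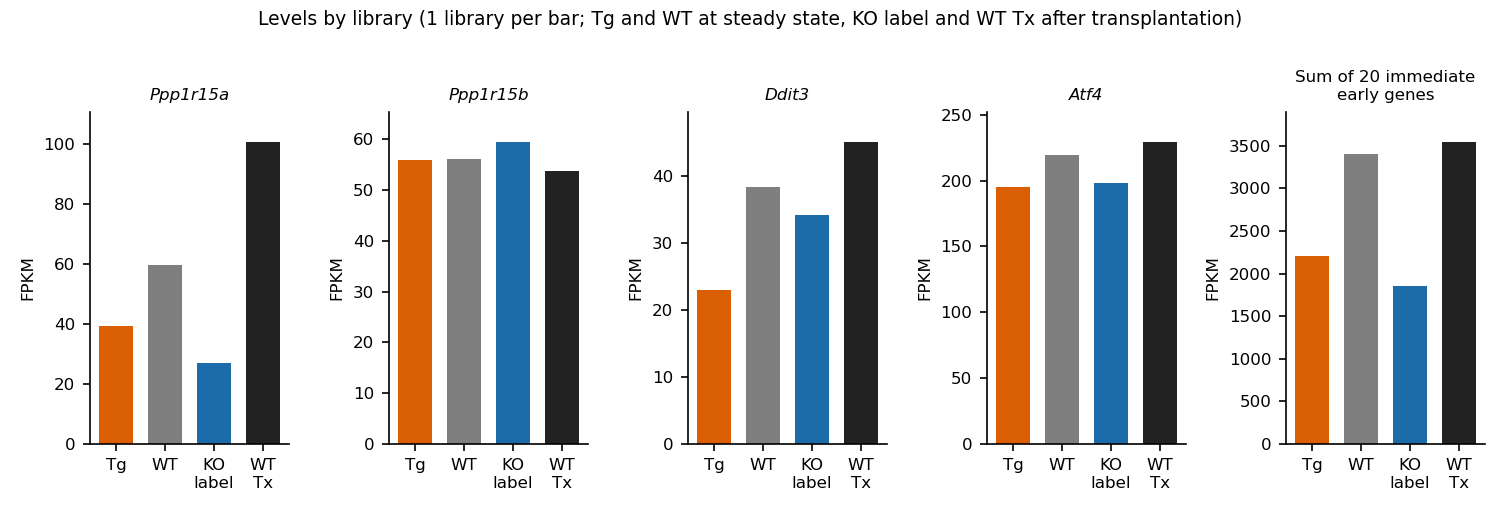
FPKM of Ppp1r15a, Ppp1r15b, Ddit3 and Atf4 and the summed FPKM of 20 immediate early genes, 1 bar per library, each axis starting at 0. Ppp1r15a and the early genes are lowest in the library labelled knockout and highest in transplanted wild type, whereas Ppp1r15b stays between 53.7 and 59.4 FPKM.

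For the remaining stress effectors the intervals held 1 in both genotype comparisons. Ddit4, the mTORC1 inhibitor REDD1, was at 72.5 FPKM in the transgenic library, against 67.3 in its wild type, and at 76.7 FPKM in the library labelled knockout and 83.1 in its wild type, which was 1.23 times (1.12 to 1.36) steady-state wild type. Sesn2, the leucine sensor sestrin 2, lay between 2.23 and 2.59 FPKM. Trib3 (chromosome 2, 152337422 to 152344032, minus strand), a pseudokinase that restrains ATF4 and CHOP, was at 0.746 FPKM in the transgenic library, 0.666 in its wild type, 0.999 in the library labelled knockout and 1.19 in its wild type, on 9 to 17 reads. So few reads leave wide intervals, as in the ratio of 0.840 (0.397 to 1.77) for the library labelled knockout against its wild type.

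Amino acid and folate genes, the metabolic arm of ATF4, were mostly higher in transplanted than in steady-state wild type. The 8 genes summed to 174 FPKM in the transgenic library, against 148 in steady-state wild type, and to 196 FPKM in the library labelled knockout and 203 in transplanted wild type. In transplanted against steady-state wild type, 6 of the 7 that passed the filter were higher, with a median difference of 0.39. All 6 were higher beyond counting error (16.6% of all genes). Asns, the lower one, passed only through steady-state wild type, which fixed its direction. Shmt2 (chromosome 10, 127517123 to 127522444, minus strand), the mitochondrial serine hydroxymethyltransferase, was at 28.1 FPKM in the transgenic library, against 27.4 in its wild type, and at 34.8 FPKM in the library labelled knockout and 42.9 in its wild type. Transplanted wild type was 1.57 times (1.38 to 1.77) steady-state wild type for Shmt2, and the library labelled knockout was at 0.811 (0.728 to 0.906) of transplanted wild type. Slc7a5, the large amino acid transporter LAT1, stood at 9.13 FPKM in transplanted and 6.23 in steady-state wild type (1.46, 1.19 to 1.82), and its partner chain Slc3a2 at 33.4 and 26.2 FPKM (1.27, 1.098 to 1.48).

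Serine synthesis and the folate enzyme Mthfd2 also differed with genotype. Psat1, the phosphoserine aminotransferase, was at 29.4 FPKM in the transgenic library, against 23.1 in its wild type (1.27, 1.11 to 1.45), and at 42.5 FPKM in the library labelled knockout and 30.6 in its wild type (1.39, 1.251 to 1.55). Phgdh, the dehydrogenase one step upstream, was at 60.1 FPKM in the transgenic library, against 49.1 in its wild type (1.22, 1.098 to 1.37). In the transplant pair its direction was the other one, at 58.1 FPKM in the library labelled knockout and 67.8 in wild type (0.857, 0.779 to 0.942). Phgdh shares stretches of at least 200 nt at 95% identity with 9 other annotated genes, so part of its reads may have been divided. Mthfd2 was at 20.98 FPKM in the transgenic library, against 14.7 in its wild type (1.43, 1.19 to 1.72), and at 21.01 FPKM in the library labelled knockout and 18.5 in its wild type (1.14, 0.968 to 1.34). Proliferation genes differed as well, but not always in the direction of these enzymes. All 20 DNA replication genes and all 20 mitosis genes were higher in the transgenic library (medians 0.34 and 0.36) and in the library labelled knockout (0.59 and 0.98), while in transplanted against steady-state wild type 11 of 20 replication genes and 0 of 20 mitosis genes were higher. Their part in the enzyme levels was not tested.

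Asns (chromosome 6, 7675169 to 7693254, minus strand), asparagine synthetase and a textbook ATF4 target, was near the limit of detection. It was at 0.640 FPKM in the transgenic library, 1.03 in its wild type, 0.669 in the library labelled knockout and 0.825 in its wild type, on 8 to 14 reads, and its intervals held 1 in every comparison.

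ER folding genes spanned no more than 1.44 times between their highest and lowest library. Their summed level was 659 FPKM in the transgenic library, against 581 in steady-state wild type, and 687 FPKM in the library labelled knockout and 746 in transplanted wild type. Steady-state wild type was the lowest library for 8 of the 9 genes and transplanted wild type the highest for 7. Calr was at 231 FPKM in the transgenic library, against 203 in its wild type (1.14, 1.08 to 1.198), and at 256 FPKM in the library labelled knockout and 283 in its wild type (0.903, 0.866 to 0.942). Pdia4, a disulfide isomerase, was at 81.2 FPKM in the transgenic library, against 68.6 in its wild type (1.18, 1.09 to 1.28), and at 71.5 FPKM in the library labelled knockout and 82.3 in its wild type (0.869, 0.805 to 0.936). These genes followed the common pattern of the folding group, with the wild types at both ends.

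Creld2 and Sdf2l1 departed from that order. Creld2, an ER stress-induced secreted factor, was highest in the transgenic library, at 28.9 FPKM against 23.0 in its wild type (1.26, 1.04 to 1.52), and was at 22.7 FPKM in the library labelled knockout and 23.8 in its wild type. Sdf2l1, a partner of the ER chaperone BiP, was highest in the library labelled knockout, at 25.6 FPKM against 22.9 in its wild type (1.12, 0.902 to 1.38). In the transgenic comparison the interval lay above 1 for 7 of the 9 folding genes (15.1% of all genes) and the median difference was 0.19. In the knockout comparison 8 of 9 were lower, 4 of them beyond counting error (22.9% of all genes), with a median of -0.10. The intervals were not recomputed after rescaling. Rescaling to the same sum, which moved the median of all genes to -0.13 in the transgenic comparison, 0.06 in the knockout comparison and -0.12 between the wild types, left 8 of 9 higher in the transgenic library but only 4 of 9 lower in the library labelled knockout. Counted against the median of all genes, 9 of 9 were above it in the transgenic library and 1 of 9 in the library labelled knockout under every scaling tried. Neutrophil markers moved in the same directions (15 of 15 higher in the transgenic library, median 1.096, and 14 of 15 lower in the library labelled knockout, median -1.33). So did monocyte and macrophage markers, with 4 of 5 measured higher in the transgenic library (median 0.62) and 7 of 7 lower in the library labelled knockout (median -0.92). In transplanted against steady-state wild type 7 of 7 were higher (median 1.21). These counts, for neutrophil as for monocyte and macrophage markers, are partly set by the filter, and the genes named here are examples. In the knockout comparison Ccr2 (0.408 against 1.75 FPKM) passed it only through its high library. C1qa (0.468 FPKM in steady-state wild type) did so in the other comparisons. The part of either cell type in the folding genes and in Ppp1r15a was not tested.

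ERAD genes were lower in the transgenic library, where folding genes were higher. Herpud1 was at 384 FPKM in the transgenic library, against 427 in its wild type (0.901, 0.866 to 0.936), and at 383 FPKM in the library labelled knockout and 325 in its wild type (1.18, 1.13 to 1.22). Transplanted wild type was the lowest library for Herpud1, at 0.762 (0.732 to 0.793) of steady-state wild type, where it was the highest for 7 folding genes. Edem1, a mannosidase-like factor that passes misfolded glycoproteins to ERAD, was at 41.0 FPKM in the transgenic library, against 46.4 in its wild type (0.883, 0.826 to 0.943), and at 43.1 FPKM in the library labelled knockout and 46.3 in its wild type (0.930, 0.874 to 0.988). Syvn1 lay between 189 and 209 FPKM and Sel1l, its adaptor, between 18.1 and 21.2 FPKM. The median difference of the 4 genes was -0.13 in the transgenic library and -0.02 in the library labelled knockout, and 0 of 4 lay above the median of all genes in the transgenic library under every scaling tried.

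Set against each other, the 16 ATF4 and amino acid targets and the 13 XBP1 and ATF6 targets of ER folding and ERAD had close medians in both genotype comparisons. In the transgenic comparison the medians were 0.11 for 13 measured ATF4 targets and 0.14 for the ER genes, a gap of -0.03. In the knockout comparison they were -0.11 and -0.10, a gap of -0.01. Between transplanted and steady-state wild type they were 0.36 for 14 ATF4 targets and 0.19 for the ER genes, a gap of 0.17, with 12 of 14 and 9 of 13 genes higher. The filter fixed the direction of Asns in the transgenic comparison, of Trib3 in the knockout comparison and of both between the wild types. The signs of the genotype medians depended on scaling. Rescaled to the same sum, the median of the ATF4 targets was -0.01 in the transgenic comparison (5 of 13 higher) and that of the ER genes 0.0041 in the knockout comparison (7 of 13 higher), while against the median of all genes 9 of 13 in each class stayed above it in the transgenic comparison. The ATF4 class was the more uneven one. Its differences ran from -0.72 to 0.49 in the transgenic comparison and from -1.87 to 0.46 in the knockout comparison, against -0.18 to 0.32 and -0.20 to 0.23 for the ER class.

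**Figure D5:**
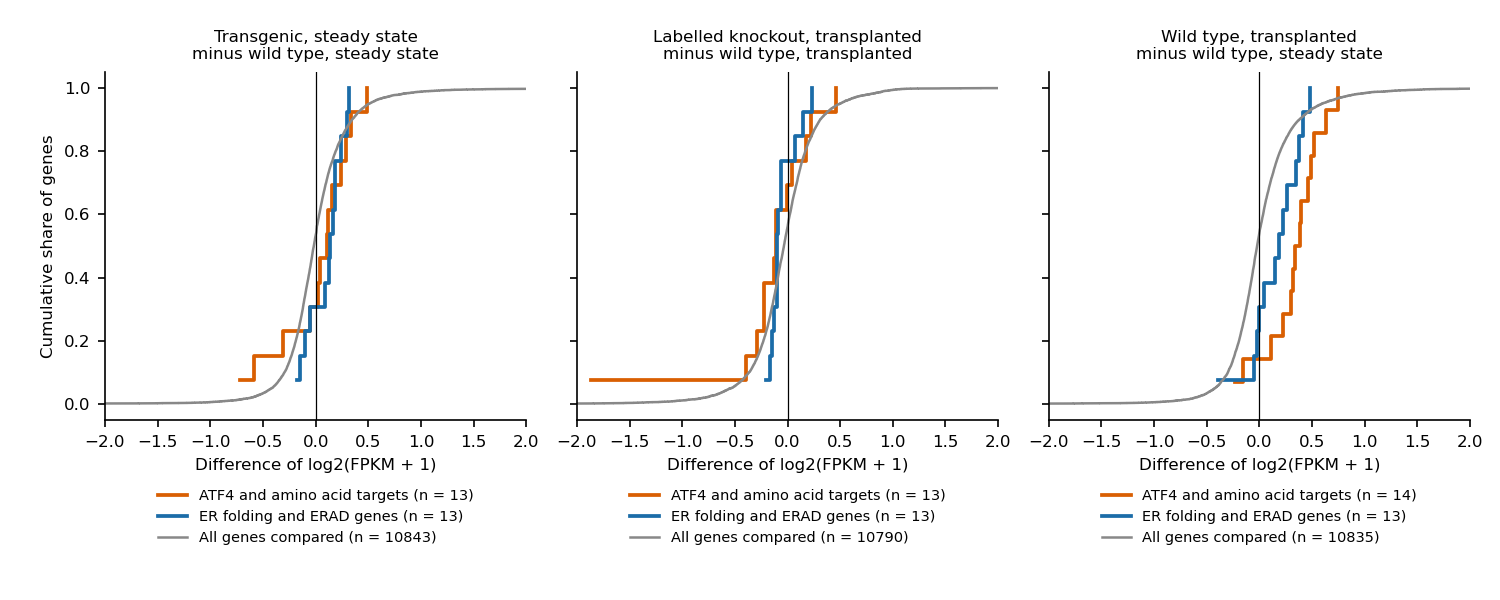
Cumulative share of genes by difference of log2(FPKM + 1) in the 3 comparisons for ATF4 and amino acid targets, ER folding and ERAD genes, and all genes compared. In the right panel the medians of both target classes lie right of that of all genes (0.36 and 0.19 against -0.02), and the long left tail in the middle panel is Ppp1r15a at -1.87.

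Of 28 further ATF4-related genes, 7 of the 13 measured were higher in the transgenic library (median 0.03). In the library labelled knockout 5 of 16 were higher (-0.14), and in transplanted against steady-state wild type 12 of 16 (0.33). For this and the other lists of this paragraph, the share of all genes higher was 46.7%, 44% and 45.9% in these comparisons, in that order. Atf3, Jdp2 and Slc1a4 passed the filter in the knockout comparison only through transplanted wild type, which fixed them as lower. The filter likewise fixed at least Atf3 and Jdp2 as higher between the wild types, and Jdp2 as higher in the transgenic comparison. Between the wild types 16 genes were measured, against 13 in the transgenic comparison. Genes beyond Atf3 and Jdp2 therefore passed only through transplanted wild type and were fixed as higher, so the 12 of 16 is partly set by the filter. Atf3, a stress-induced transcription factor, was listed at 0 in the library labelled knockout, against 1.53 FPKM in its wild type, and was at 0.622 FPKM in the transgenic library, against 0.463 in its wild type. Eif4ebp1, a translation inhibitor gene, was at 25.6 FPKM in the transgenic library, against 37.9 in its wild type (0.675, 0.585 to 0.776). Of 28 further ER folding genes 14 of 26 were higher in the transgenic library (median 0.03) and 11 of 25 in the library labelled knockout (-0.04). In transplanted against steady-state wild type 15 of 26 were higher (0.02), with the interval above 1 for 4 and below 1 for 3. The median of the ER folding members in that comparison was 0.26, so this list as a whole did not show a rise of that size. Dnajb9, the BiP cochaperone ERdj4 and a target of XBP1, was at 21.8 FPKM in the transgenic library, against 33.7 in its wild type (0.648, 0.567 to 0.743), and at 22.4 FPKM in the library labelled knockout and 39.1 in its wild type (0.573, 0.507 to 0.647). Ero1lb, an ER oxidase, was at 48.8 FPKM in the library labelled knockout and 78.4 in its wild type (0.622, 0.584 to 0.662). Hspa5, the gene of BiP, was at 248 FPKM in transplanted and 182 in steady-state wild type (1.36, 1.31 to 1.41). Fkbp11, also one of the plasma cell markers, had the largest difference there, at 0.488 against 5.68 FPKM (0.0859, 0.00979 to 0.349). Of 19 further ERAD genes 3 were higher in the transgenic library (median -0.08), 6 in the library labelled knockout (-0.12) and 2 in transplanted against steady-state wild type (-0.11).

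Of 19 genes of the machinery around eIF2, 13 were higher in the transgenic library (median 0.04), 10 in the library labelled knockout (0.02) and 5 in transplanted against steady-state wild type (-0.06). Of all genes, 46.7%, 44% and 45.9% were higher, in the same order. Eif2ak2, the double-stranded RNA sensor PKR and an interferon-inducible gene, was at 20.504 FPKM in the transgenic library, against 11.7 in its wild type (1.75, 1.54 to 2.004), and at 23.3 FPKM in the library labelled knockout and 20.7 in its wild type. Steady-state wild type was its low library of the 4. Ppp1cc, a catalytic subunit of the phosphatase that Ppp1r15a and Ppp1r15b direct, was at 275 FPKM in the library labelled knockout and 210.2 in its wild type (1.31, 1.253 to 1.365).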

How the data were processed

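RNA-seq values of 4 pre-B cell libraries were used. Per the submitters' processing notes reads were processed on mm10 with Cufflinks 2.2.1, TopHat2 2.0.13, SAMtools 0.1.19 and Bowtie2 2.2.3; their order and roles, the annotation and any scaling between libraries are not stated there. The deposited values are read as FPKM, since Cufflinks gives that unit, but per the file headers no unit is named. Per the labels' protocols the library kit was stranded.

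Depth was estimated from steps of 1 read in genes with 1 GENCODE M21 transcript, taking the length less 210 nt, and 66.4% to 70.9% of values of 1 to 20 reads fell within 0.1 of a whole read. For genes with several transcripts the estimate is rougher. Differences used a pseudocount of 1 and genes that reached 1 FPKM in at least 1 of both libraries, and the procedure was tested on simulated data. With 1 library per group no test was possible. Members and lists were chosen with earlier results of these data known. Members 1.5-fold apart in any comparison that reached 1 FPKM, and Atf4, Xbp1, Atf6 and Ddit3, are given in full; of other lists the 3 largest differences may be named. The remaining members given with values, and Fos, Igj, Il4i1, Mars, Nup62 and Tulp2 were chosen after their values were seen. The CRE search and the alternative without overlapping members were also added after seeing the data. Other pseudocounts, filters and scalings were tried. Python 3.11.15, scipy 1.17.1 and BLAST were used.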

Additional observations from a re-analysis of the deposited data

How the results depend on the processing

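Results were recomputed with a pseudocount of 0.1 or 5, without the filter or at 5 FPKM, under 4 rescalings, and, chosen after seeing the data, without the 20 members that overlap another gene or share a near-identical stretch. Among single members named in full no called difference reversed, but rescaling to the same sum turned the sign of the transgenic median of ATF4 targets (-0.01, against 0.11) and of the knockout median of ER genes (0.0041, against -0.10). In the transgenic library, the count of members lower by 1.5-fold or more was 2 as reported, 1 with a pseudocount of 5 and under the 3 rescalings other than to the same sum, where Ppp1r15a fell short of the threshold, and 0 without overlapping members. Those at least 1.5-fold higher in transplanted against steady-state wild type numbered 2 as reported, 4 with a pseudocount of 0.1, 1 with a pseudocount of 5, 1 under rescaling to the same sum and 0 without overlapping members. Rescaling to the same sum also gave 1 of 9 folding genes lower in the transgenic library, 1 of 9 lower in transplanted against steady-state wild type, and 5 higher and 4 lower in the library labelled knockout. Without overlapping members, 5 folding genes were left, 5 of them higher in the transgenic library, 4 lower in the library labelled knockout and 5 higher in transplanted against steady-state wild type, and by construction no member was 1.5-fold or 2-fold lower in the library labelled knockout (0 and 0), since Ppp1r15a overlaps Tulp2. No paired analysis was possible because each group holds 1 library. Depth limits Chac1, Slc7a11, Trib3 and Asns, which rested on at most 17 reads in any library.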

Other observations

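Of 19 cytosolic aminoacyl-tRNA synthetase genes, many of them ATF4 targets, 9 were higher in the transgenic library than in steady-state wild type (median -0.01), 6 in the library labelled knockout than in transplanted wild type (-0.07) and 13 in transplanted than in steady-state wild type (0.08). The shares of all genes higher were 46.7%, 44% and 45.9%, in the same order. In that last comparison the counting interval lay above 1 for 7 of the 19 and below 1 for 0, against 16.6% and 19.3% of all genes. Wars, the tryptophanyl-tRNA synthetase gene, was at 36.9 FPKM in transplanted and 28.2 in steady-state wild type (1.31, 1.13 to 1.51).

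Of 34 genes of ER translocation and early secretion measured, 15 were higher in the transgenic library (median -0.04), 13 in the library labelled knockout (-0.02) and 8 in transplanted against steady-state wild type (-0.06). Higher among all genes were 46.7%, 44% and 45.9%, in the same order. Sec63, a translocon subunit gene, was at 75.1 FPKM in the transgenic library, against 101 in its wild type (0.741, 0.707 to 0.775), and Sec24d, a COPII coat gene, was at 2.65 FPKM in transplanted and 5.76 in steady-state wild type (0.460, 0.345 to 0.609). The plasma cell markers were lower in the same direction, 8 of 8 measured in the transgenic library (median -0.41, against 53.3% of all genes lower). So were 8 of 8 in transplanted against steady-state wild type (-0.71, against 54.1%). There Fkbp11 (0.488 against 5.68 FPKM) and Tnfrsf17 (0.427 against 3.61 FPKM) passed the filter only through steady-state wild type, which fixed their direction. The part of plasma cells in these differences was not tested.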
